A study of Homo sapiens with 12 samples.

Results

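The BCL2 family genes described here are 10 regulators of the mitochondrial pathway of cell death: the effectors BAX and BAK1, the BH3-only death signals BBC3, PMAIP1, BCL2L11 and BID, and the survival proteins BCL2, BCL2L1, MCL1 and BCL2A1. They were chosen by name, and each was read from array probe sets that carry its symbol and no other. Such probe sets existed for 9 of the 10 genes, and they numbered 30 of the 41097 probe sets with 1 symbol. BBC3, the gene of PUMA, was covered only by a probe set shared with another symbol and is not analysed here. The whole data set held 19775 genes.

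RNA was measured in U-87 MG, an established human glioma line, stably transfected with a hairpin RNA directed at p105 (shp105) or with a hairpin that serves as control (shControl). NFKB1 encodes p105, from which the NF-kB subunit p50 is made, and the study set NF-kB-deficient against NF-kB-proficient cells. The groups were shp105 cells with 100 uM temozolomide (TMZ), a DNA-methylating drug, shp105 cells with the solvent DMSO, shControl cells with 100 uM TMZ, and shControl cells with DMSO. Each treatment lasted 16 h, and each group had 3 arrays (12 in all), so n = 3 stands behind every group mean. The replicates are named biological, with no word on whether each had its own transfection or culture, and every p-value therefore rests on the spread among these arrays alone.

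BCL2 family proteins decide whether the outer membrane of the mitochondrion stays intact. BAX and BAK1 form the pores that release cytochrome c, survival proteins hold them in check, and BH3-only proteins bind the survival proteins or activate the effectors directly. Several of these genes are known targets of p53 (BAX, BBC3, PMAIP1) or of NF-kB (BCL2L1, BCL2A1), and glioma cells commonly carry high levels of survival proteins.

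All 12 arrays were alike in overall level, with array medians of 5.04 to 5.09 on the log2 scale and correlations of 0.997 to 0.998 between arrays of a group. Probe sets for sequences absent from human RNA (the controls named below) read 2.33 to 4.30, and the median gene read 6.34. NFKB1, the targeted gene, averaged 7.16 ± 0.05 in shp105 cells with TMZ and 7.41 ± 0.11 in shControl cells with TMZ (SD). With DMSO it averaged 7.20 ± 0.06 in shp105 cells and 7.32 ± 0.09 in shControl cells. Its difference passed the test in TMZ (-0.25, adjusted p = 0.0204) and not in DMSO (-0.12, adjusted p = 0.260). Of 9 glioma line markers, 7 were above the controls on all 12 arrays, VIM at 14.69 to 14.84, while the astrocyte marker S100B was within the control range on every array. Of markers of other cell types, 2 of 5 for leukocytes (CD3E, ITGAM), 1 of 3 for endothelium (PECAM1) and 2 of 3 for epithelium (EPCAM, KRT5) were above the controls on every array, all at 6.14 or less, and VWF on 11 arrays. PTPRC, CD14, LYZ, CDH5 and CDH1 were above them on 0 arrays. In bulk RNA, fewer cells with a transcript and less of it per cell cannot be told apart.

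Promoter windows of 4 members are shown because their levels carry the differences below: PMAIP1 and BAK1 were higher in shp105 cells, BAX was lower there, and BAX and BCL2L1 were higher after TMZ. Each window runs from 250 bases before to 50 bases after the RefSeq start of the gene (build GRCh38.p14). PMAIP1 lies at chr18:59899746-59900045 and BAX at chr19:48954625-48954924, both on the plus strand. BCL2L1 lies at chr20:31723914-31724213 and BAK1 at chr6:33580227-33580526, both on the minus strand. Capitals mark matches, on either strand, to the NF-kB core GGGNNNNNCC or to the 10-base p53 half-site.
PMAIP1: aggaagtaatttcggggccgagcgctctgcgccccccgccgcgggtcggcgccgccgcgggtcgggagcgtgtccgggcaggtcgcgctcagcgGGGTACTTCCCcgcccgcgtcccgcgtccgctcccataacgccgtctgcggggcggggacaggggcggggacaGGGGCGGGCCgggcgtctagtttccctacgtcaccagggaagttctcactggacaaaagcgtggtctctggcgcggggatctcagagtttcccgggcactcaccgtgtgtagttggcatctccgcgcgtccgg
BAK1: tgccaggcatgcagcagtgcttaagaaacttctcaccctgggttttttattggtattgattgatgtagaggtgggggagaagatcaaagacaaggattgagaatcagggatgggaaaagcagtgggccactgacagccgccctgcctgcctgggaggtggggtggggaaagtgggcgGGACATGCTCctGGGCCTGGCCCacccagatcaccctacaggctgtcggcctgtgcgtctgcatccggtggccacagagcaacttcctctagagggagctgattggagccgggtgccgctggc
BAX: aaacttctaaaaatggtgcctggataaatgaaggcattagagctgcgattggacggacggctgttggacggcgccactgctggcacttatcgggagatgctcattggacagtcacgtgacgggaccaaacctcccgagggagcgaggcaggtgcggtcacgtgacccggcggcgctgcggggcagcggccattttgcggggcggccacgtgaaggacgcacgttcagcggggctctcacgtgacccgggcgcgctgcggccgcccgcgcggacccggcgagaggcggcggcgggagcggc
BCL2L1: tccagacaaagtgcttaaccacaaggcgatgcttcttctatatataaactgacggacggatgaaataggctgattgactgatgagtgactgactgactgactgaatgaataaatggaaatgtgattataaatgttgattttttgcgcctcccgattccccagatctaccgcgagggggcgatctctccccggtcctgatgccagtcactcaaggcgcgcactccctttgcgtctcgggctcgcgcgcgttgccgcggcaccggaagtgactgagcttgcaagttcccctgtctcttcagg

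The PMAIP1 window held 3 NF-kB core matches, an overlapping pair at -156 to -146 from the start and another at -83 to -74. The BAK1 window held an overlapping pair at -61 to -51 and a p53 half-site at -73 to -64, the first run of capitals. The BAX and BCL2L1 windows held neither set of letters. The table held windows for 9 of the 10 members, all but MCL1. The NF-kB core was in 6 of these 9 windows, against 58.7% of all 35116 windows of this length, and the p53 half-site in 1 of 9, against 6.6%. A match is a run of letters and not a bound site.

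Between the lines, the hairpin against p105 went with more PMAIP1 and BAK1 RNA and with less BAX and MCL1 RNA. Differences are given as shp105 minus shControl on the log2 scale, from limma's moderated test on all 12 arrays, and a gene was called at an adjusted p under 0.05 over all 19775 genes. In TMZ, 3 of the 9 members were called, 1 higher and 2 lower. Of all genes, 21.1% were called in that comparison (10.1% higher, 11% lower). In DMSO, 4 of the 9 were called, 2 higher and 2 lower, against 19.9% of all genes (8.34% higher, 11.6% lower). The members' median difference was 0.07 in TMZ and -0.00 in DMSO, and that of all genes -0.01 in both. At an unadjusted p under 0.05 the counts were 6 in TMZ and 5 in DMSO, against 6305 and 5898 of all 19775 genes. At the adjusted rates above, about 2 of any 9 genes are called. The counts therefore say little about the family as a group, and the results below concern single genes.

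**Figure D1:**
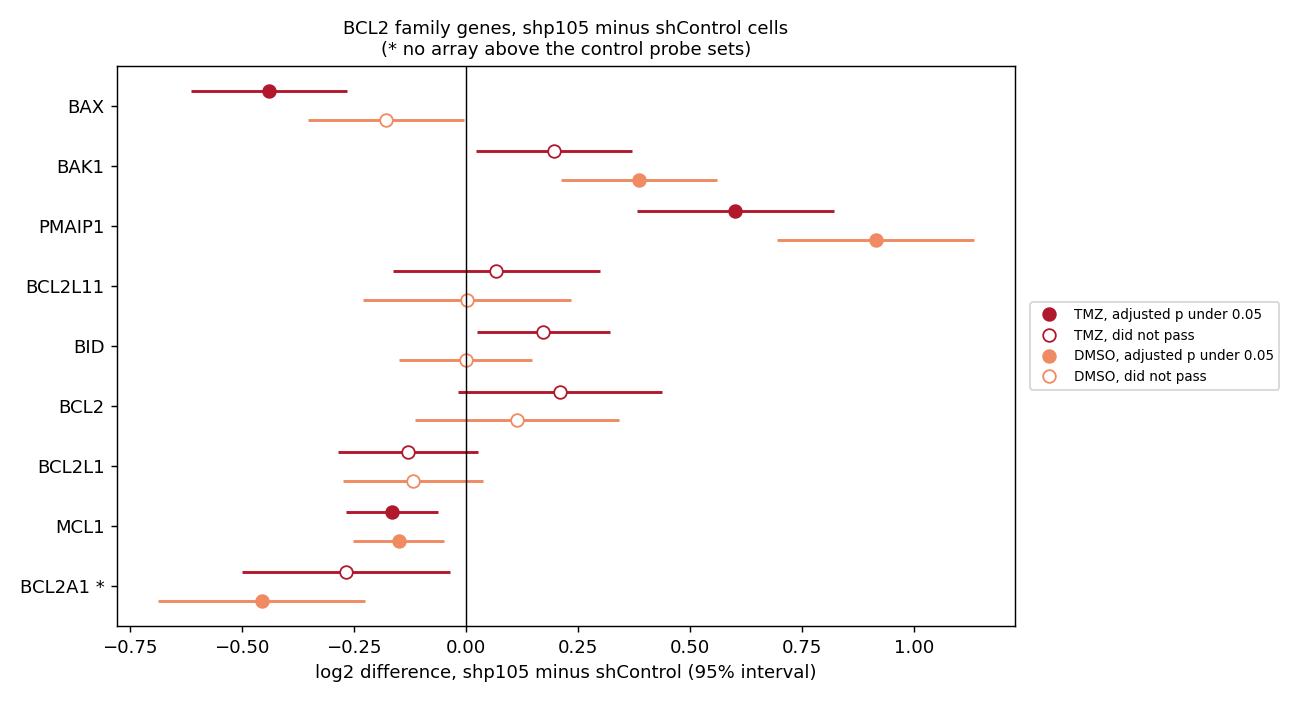
Difference between shp105 and shControl cells for 9 BCL2 family genes, on the log2 scale, with its 95% interval, in TMZ (red) and in DMSO (orange). Filled points have an adjusted p under 0.05, and the asterisk marks BCL2A1, whose arrays all read within the control range. PMAIP1 lies farthest to the right, at 0.60 in TMZ and 0.91 in DMSO, and BAX at -0.44 in TMZ.

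Among the effectors, BAX and BAK1 differed in opposite directions. BAX, whose protein moves to the mitochondrion when activated, read 6.74, 6.85 and 6.94 in shp105 cells with TMZ, against 7.31, 7.26 and 7.27 in shControl cells with TMZ. With DMSO it read 6.48, 6.78 and 6.76 in shp105 cells, against 6.87, 6.83 and 6.84 in shControl cells. Every shp105 array was below every shControl array under the same treatment. The difference in TMZ was -0.44 (SE 0.08, 1.36-fold lower, adjusted p = 0.00189), and in DMSO it was -0.18 (adjusted p = 0.157), which did not pass.

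BAK1, an effector held in the mitochondrial membrane also in healthy cells, read 6.40, 6.46 and 6.54 in shp105 cells with TMZ, against 6.13, 6.20 and 6.47 in shControl cells with TMZ. With DMSO it read 6.47, 6.55 and 6.52 in shp105 cells, against 6.11, 6.09 and 6.17 in shControl cells. The groups overlapped in TMZ, through shControl array 3, and were apart in DMSO. BAK1 was higher by 0.39 in DMSO (SE 0.08, 1.31-fold, adjusted p = 0.00455). In TMZ the difference was 0.20 (adjusted p = 0.107). Without shControl_TMZ replicate 3 it was 0.30 and passed (adjusted p = 0.00851). It also passed with genes below the median level left out (adjusted p = 0.0420). In the other 17 of 19 alternatives it did not pass, and over all of them it ranged from 0.13 to 0.30.

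Of the BH3-only genes, PMAIP1 had the largest line difference of any member. PMAIP1 encodes NOXA, which binds MCL1 and speeds its breakdown. It read 11.14, 10.72 and 11.07 in shp105 cells with TMZ, against 10.42, 10.37 and 10.33 in shControl cells with TMZ. With DMSO the values were 11.02, 10.82 and 10.99 in shp105 cells, against 10.11, 10.03 and 9.95 in shControl cells. All 6 shp105 arrays were above all 6 shControl arrays. The difference was 0.60 in TMZ (SE 0.10, 1.52-fold, adjusted p = 0.00106) and 0.91 in DMSO (SE 0.10, 1.89-fold, adjusted p = 4.71e-05). Its second probe set gave 0.61 in TMZ and 0.80 in DMSO, both called (adjusted p = 0.000762 and 0.000106).

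BCL2L11, the gene of BIM, read 6.95 to 7.43 in shp105 cells with TMZ and 6.99 to 7.20 in shControl cells with TMZ. With DMSO it read 7.18 to 7.27 in shp105 cells and 7.13 to 7.30 in shControl cells. The ranges overlapped under both treatments, and the differences were 0.07 in TMZ (95% interval -0.16 to 0.30) and 0.00 in DMSO (-0.23 to 0.23). BID, which links death receptors to the mitochondrion once a caspase has cut it, read 9.66, 9.90 and 9.76 in shp105 cells with TMZ, against 9.59, 9.67 and 9.52 in shControl cells with TMZ. One shp105 array fell within the shControl range, and the difference was 0.17 (SE 0.07, adjusted p = 0.0978). It passed in 4 of 19 alternatives, among them without shp105_TMZ replicate 1 (0.23, adjusted p = 0.0410), and ranged from 0.06 to 0.23 over all of them. In DMSO the BID difference was -0.00 (95% interval -0.15 to 0.15). Another BID probe set gave -0.11 in TMZ and -0.15 in DMSO, and neither was called.

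The survival gene MCL1, whose protein is short-lived, was lower in shp105 cells by a small and even margin. It read 10.96, 11.01 and 11.00 in shp105 cells with TMZ, against 11.18, 11.14 and 11.14 in shControl cells with TMZ. With DMSO it read 11.08, 11.05 and 11.09 in shp105 cells, against 11.27, 11.17 and 11.22 in shControl cells. The lines were apart under both treatments, by -0.16 in TMZ (SE 0.05, 1.12-fold lower, adjusted p = 0.0256) and -0.15 in DMSO (SE 0.05, 1.11-fold lower, adjusted p = 0.0416). The call in TMZ was lost when shp105_TMZ replicate 1 was left out (adjusted p = 0.0755), or shControl_TMZ replicate 1 (0.0934), 2 (0.0580) or 3 (0.0610). The call in DMSO was lost without shp105_DMSO replicate 1 (0.0915), 2 (0.115) or 3 (0.0849), and without shControl_DMSO replicate 1 (0.147) or 3 (0.101). When the fit held only the 2 groups compared, both were lost (0.0903 in TMZ and 0.0971 in DMSO), and with p-values adjusted over all probe sets likewise (0.0580 and 0.0877). Median centring (0.0574), quantile normalization (0.0604) and the replicate block (0.0713) each ended the DMSO call.

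BCL2, the founding survival gene of the family, read 5.72, 5.80 and 6.11 in shp105 cells with TMZ, against 5.62, 5.80 and 5.57 in shControl cells with TMZ. The ranges overlapped, and the difference was 0.21 (SE 0.10, adjusted p = 0.195). In DMSO it was 0.11 (adjusted p = 0.539). BCL2L1, which encodes the survival protein BCL-XL, differed by -0.13 in TMZ (adjusted p = 0.246) and -0.12 in DMSO (adjusted p = 0.318). BCL2A1, an NF-kB target mainly of blood cells, read 2.67 to 3.49 over all 12 arrays, within the control range, so no fold is given for it. Its lower reading in shp105 cells with DMSO, at 2.67, 3.04 and 2.94 against 3.49, 3.26 and 3.26 in shControl cells, still passed the test (adjusted p = 0.00919) and is counted above. Without BCL2A1, 3 of 8 members were called in DMSO.

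Averaged over both treatments, a contrast added after the values had been seen, 5 of the 9 members differed between the lines, 2 higher and 3 lower. Of all genes, 30.1% were called in it (13.4% higher, 16.7% lower). PMAIP1 was higher by 0.76 (SE 0.07, adjusted p = 6.03e-06) and BAK1 by 0.29 (SE 0.06, adjusted p = 0.00178). BAX fell by 0.31 (SE 0.06, adjusted p = 0.00120) and MCL1 fell by 0.16 (SE 0.03, adjusted p = 0.00308), and the dim BCL2A1 was the remaining call. BCL2L1, at -0.12, did not pass (adjusted p = 0.0906). It passed in 4 of 24 alternatives, among them without shp105_DMSO replicate 2 (-0.16, adjusted p = 0.0210). The order of the group means for PMAIP1 was shp105 with TMZ, shp105 with DMSO, shControl with TMZ and shControl with DMSO, and only the first 2 overlapped.

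The hybridization spike-ins, RNAs added before hybridization at set amounts, also differed between the groups. Their mean level was 11.32 in shp105 cells with TMZ, 11.13 in shp105 cells with DMSO, 10.95 in shControl cells with TMZ and 10.63 in shControl cells with DMSO. For GAPDH, the gap between its 3' and its 5' probe sets, which grows as RNA degrades, was 0.37 to 0.44, 0.33 to 0.40, 0.27 to 0.32 and 0.22 to 0.27 in the same order of groups. The same gap for ACTB did not follow that order, at 3.01 to 3.15, 2.94 to 3.14, 2.78 to 2.94 and 2.95 to 3.07. With spike-in levels as covariate, 0 of the 9 members were called between the lines. The spike-in levels nearly separated the groups, at 11.18 to 11.43, 11.01 to 11.20, 10.84 to 11.01 and 10.57 to 10.67 in the order above. Spike-in level and group can therefore hardly be told apart in this fit, and a call lost in it decides nothing. MCL1 kept its difference of -0.15 in DMSO and lost its call (adjusted p = 0.668). PMAIP1 was then 0.54 in TMZ (adjusted p = 0.181) and 0.83 in DMSO (adjusted p = 0.140), BAK1 0.42 in DMSO (adjusted p = 0.403) and BAX -0.19 in TMZ (adjusted p = 0.528). BAX in DMSO turned to 0.15 (adjusted p = 0.791), against -0.18 without the covariate, and its average line difference was -0.02 (adjusted p = 0.968), against -0.31. That fit called 1045 genes in TMZ and 523 in DMSO. Some cell markers moved with the line as well. The mean level of the 9 glioma markers was 8.16 to 8.22 in shp105 cells with TMZ and 8.19 to 8.20 with DMSO, against 7.85 to 7.98 in shControl cells with TMZ and 7.88 to 8.01 with DMSO. OLIG2, a glial transcription factor, averaged 5.38 in shp105 cells with TMZ, against 4.02 in shControl cells with TMZ, and SPARC, a matrix protein, 9.87 against 9.27. CD44, an adhesion receptor, averaged 12.63 in shp105 cells against 12.95 in shControl cells, and EPCAM, an epithelial adhesion protein, 5.10 against 5.55, both with TMZ. These 4 were called in the same direction with DMSO. The part of RNA quality and of these markers in the members' differences was not tested.

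**Figure D2:**
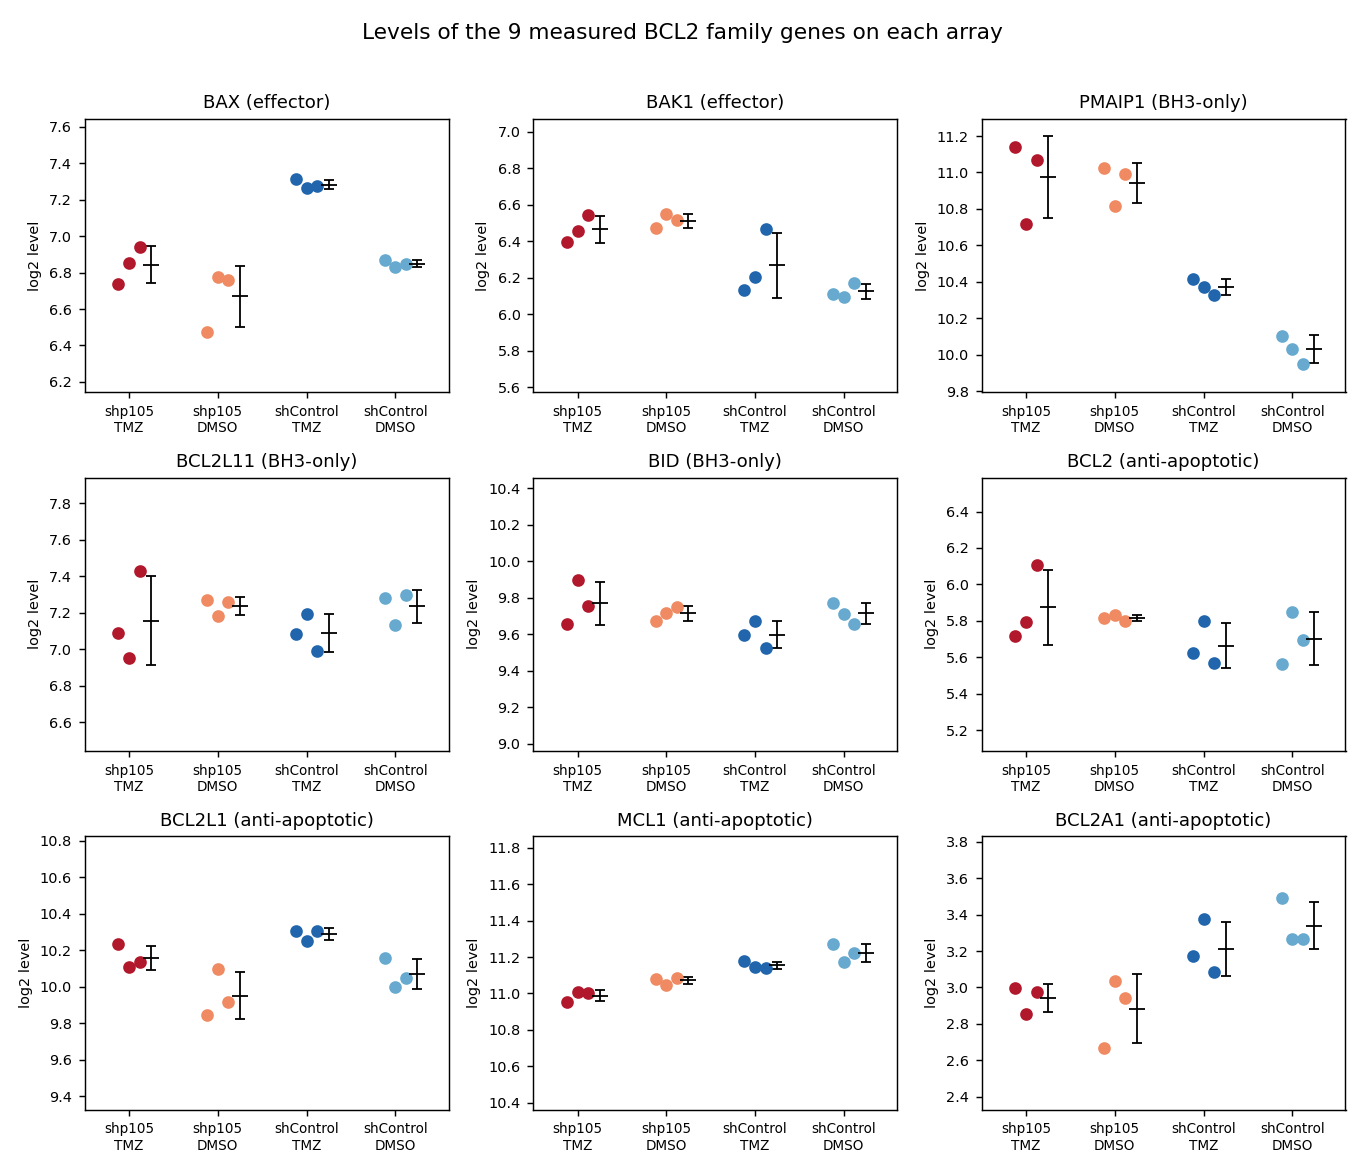
Log2 level of each of 9 BCL2 family genes on the 12 arrays. Points are arrays, and bars are group means ± SD (n = 3). Groups run from shp105 with TMZ on the left to shControl with DMSO on the right, and each panel spans the same height on the log2 scale. All 6 shp105 arrays lie above all 6 shControl arrays for PMAIP1 and below them for MCL1.

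Few members passed the test for the drug after 16 h. In shp105 cells, 0 of the 9 members were called by limma for TMZ minus DMSO, and 1, BCL2L1, had an unadjusted p under 0.05. A fit with trend and robust variance called 1 member, and 937 of all 19775 genes. Without these settings, 0.865% of all genes were called (0.647% higher, 0.217% lower). In shControl cells 1 of the 9, BAX, was called, and it was higher, against 0.369% of all genes (0.253% higher, 0.116% lower). The members' median response was 0.06 in shp105 cells and -0.04 in shControl cells, and that of all genes 0.01 and -0.00.

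BAX was higher with TMZ by 0.43 in shControl cells (SE 0.08, 1.35-fold, adjusted p = 0.0494), where the 3 TMZ arrays lay above the 3 DMSO arrays. In shp105 cells its response was 0.17 (SE 0.08, adjusted p = 0.307), and the ranges overlapped. The call in shControl cells sat at the threshold. It was lost without each one of the 6 shControl arrays in turn (adjusted p = 0.131 to 0.211). It was lost as well with the mean of the probe sets (0.116), p-values over all probe sets (0.0822), median centring (0.0697), an ordinary linear model (0.0690) and the spike-in covariate (0.365), and in the fit with a replicate block (0.0875).

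BCL2L1 read 10.23, 10.11 and 10.14 in shp105 cells with TMZ, against 9.84, 10.09 and 9.91 in shp105 cells with DMSO. In shControl cells it read 10.31, 10.25 and 10.31 with TMZ, against 10.16, 10.00 and 10.05 with DMSO. In each line all TMZ arrays were above all DMSO arrays. The response was 0.21 in shp105 cells (SE 0.07, adjusted p = 0.184) and 0.22 in shControl cells (SE 0.07, adjusted p = 0.283), and neither passed on its own.

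PMAIP1 responded by 0.34 in shControl cells (SE 0.10, adjusted p = 0.232), with TMZ and DMSO arrays apart, and by 0.03 in shp105 cells (95% interval -0.19 to 0.25), with overlapping arrays. Neither passed. Its second probe set gave 0.13 in shControl cells (adjusted p = 0.715), with overlapping arrays, and -0.05 in shp105 cells. MCL1 was -0.08 in shp105 cells (adjusted p = 0.414) and -0.07 in shControl cells (adjusted p = 0.645). BAK1, BCL2L11, BID and BCL2 had responses of -0.15 to 0.14 in the 2 lines, with overlapping arrays in each case.

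**Figure D3:**
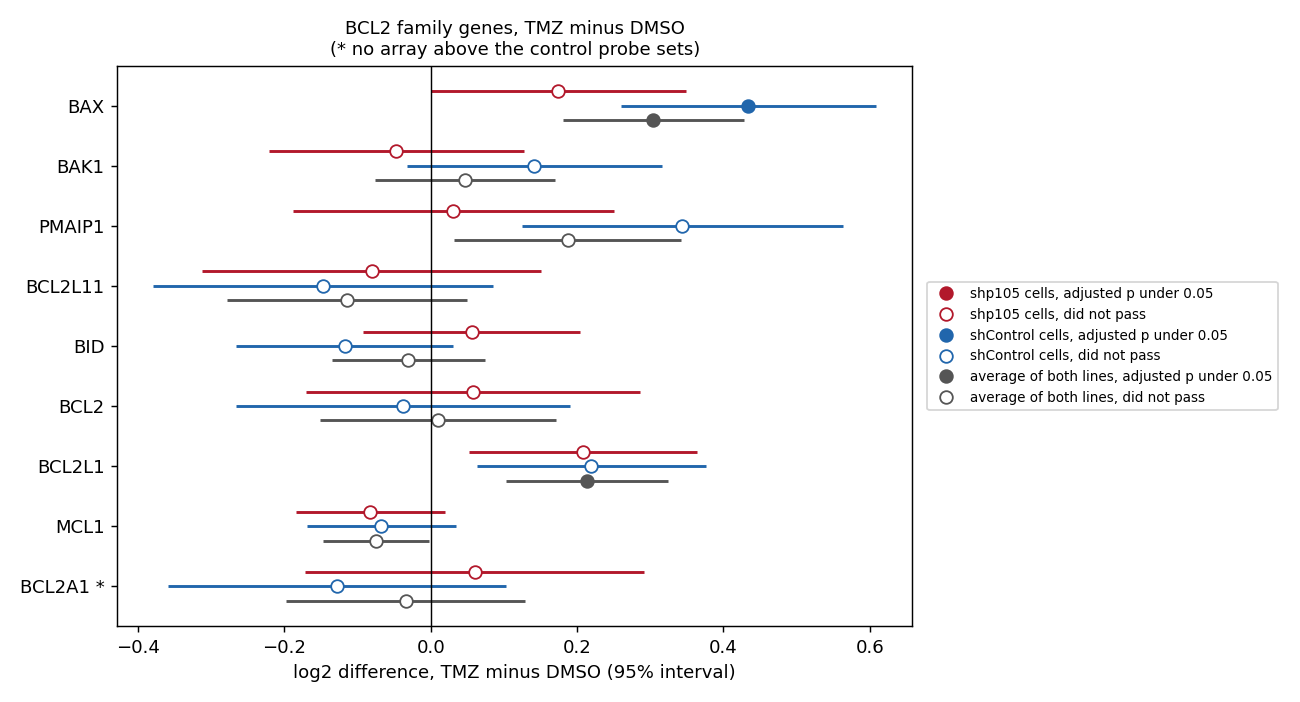
Difference between TMZ and DMSO for 9 BCL2 family genes on the log2 scale, with its 95% interval, in shp105 cells (red), in shControl cells (blue) and averaged over both lines (grey). Filled points have an adjusted p under 0.05: BAX in shControl cells, at 0.43, and the averages of BAX, at 0.30, and BCL2L1, at 0.21.

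Whether the lines differed in their answer to TMZ was tested as the difference of both responses. It was called for 0 of the 9 members and for 0% of all 19775 genes in the limma fit. The 2 members with an unadjusted p under 0.05 were BAX (-0.26, SE 0.11, adjusted p = 0.773) and PMAIP1 (-0.31, SE 0.14, adjusted p = 0.775), and 1266 genes had one. A different answer of BAX or PMAIP1 in shp105 cells is therefore not shown, though the 95% intervals reached -0.51 for BAX and -0.62 for PMAIP1. For BCL2L1 the difference was -0.01 (95% interval -0.23 to 0.21).

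Averaged over both lines, a contrast also added after the values had been seen, 2 of the 9 members rose with TMZ, against 3.36% of all genes (1.84% higher, 1.53% lower). BAX rose by 0.30 (SE 0.06, 1.23-fold, adjusted p = 0.0184) and BCL2L1 by 0.21 (SE 0.05, 1.16-fold, adjusted p = 0.0429), an effector and a survival gene together. The BAX call was lost without shControl_TMZ replicate 1 (adjusted p = 0.0508) and without shControl_DMSO replicate 2 (0.0539). The BCL2L1 call held only without shp105_DMSO replicate 2 or shControl_DMSO replicate 1, and was lost without each of the other 10 arrays (0.0545 to 0.111). It was also lost with median centring (0.0583), an ordinary linear model (0.0535), a replicate block (0.0825) and p-values over all probe sets (0.0751). PMAIP1, at 0.19 (adjusted p = 0.173), passed without shp105_TMZ replicate 2 (0.25, adjusted p = 0.0321), while its second probe set gave 0.04. With the spike-in covariate 0 members were called for the average response, and 4 of all genes.

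The other probe sets of the members bear on how far 1 probe set speaks for its gene. Tested each on its own, 4 of the 30 were called between the lines in TMZ, against 15.4% of all 41097, and 7 in DMSO, against 14.4%. For TMZ minus DMSO it was 1 in shp105 cells, against 0.234%, and 0 in shControl cells, against 0.151%. For the averaged contrasts it was 3 for the drug, against 1.39%, and 12 for the line, against 24.6%.

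The second BAX probe set gave a TMZ response of 0.41 in shp105 cells and 0.42 in shControl cells, so the response in shp105 cells was 0.17 by one probe set and 0.41 by the other. Both BAX probe sets were called for the average drug response (adjusted p = 0.0308 and 0.0456) and for the average line difference (0.00190 and 0.0180). All 4 BCL2L1 probe sets read higher with TMZ, by 0.16 to 0.37 on average, and 0 of them passed on the adjustment over all probe sets. One of the other 3 was lower in shp105 cells on average (-0.26, adjusted p = 0.0485).

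The probe sets of MCL1 differed in the size of their values. One of them, of a class whose probes may also match other transcripts, read 9.50, 9.30 and 9.53 in shp105 cells with TMZ, against 9.86, 9.96 and 10.02 in shp105 cells with DMSO. In shControl cells it read 10.14, 10.04 and 10.10 with TMZ, against 10.34, 10.27 and 10.41 with DMSO. The 4 groups did not overlap. The drug response was -0.50 in shp105 cells (adjusted p = 0.0222) and -0.24 in shControl cells, which did not pass, and the line difference was -0.65 in TMZ (adjusted p = 9.26e-05) and -0.39 in DMSO (adjusted p = 0.00406). All 6 MCL1 probe sets read lower in shp105 cells on average, and 4 of them were called.

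The BCL2 probe sets differed in direction: one of its other probe sets was higher in shp105 cells with DMSO (0.40, adjusted p = 0.0322), while another averaged -0.12 over both treatments and was not called. The 7 probe sets of BCL2L11 had average line differences of -0.10 to 0.14, and none was called. Of these 7, one read within the control range on all 12 arrays, and another was above it on 1 array. The 3 probe sets of BID were not called in any comparison, and their average line differences of -0.13 to 0.09 differed in direction.

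**Figure D4:**
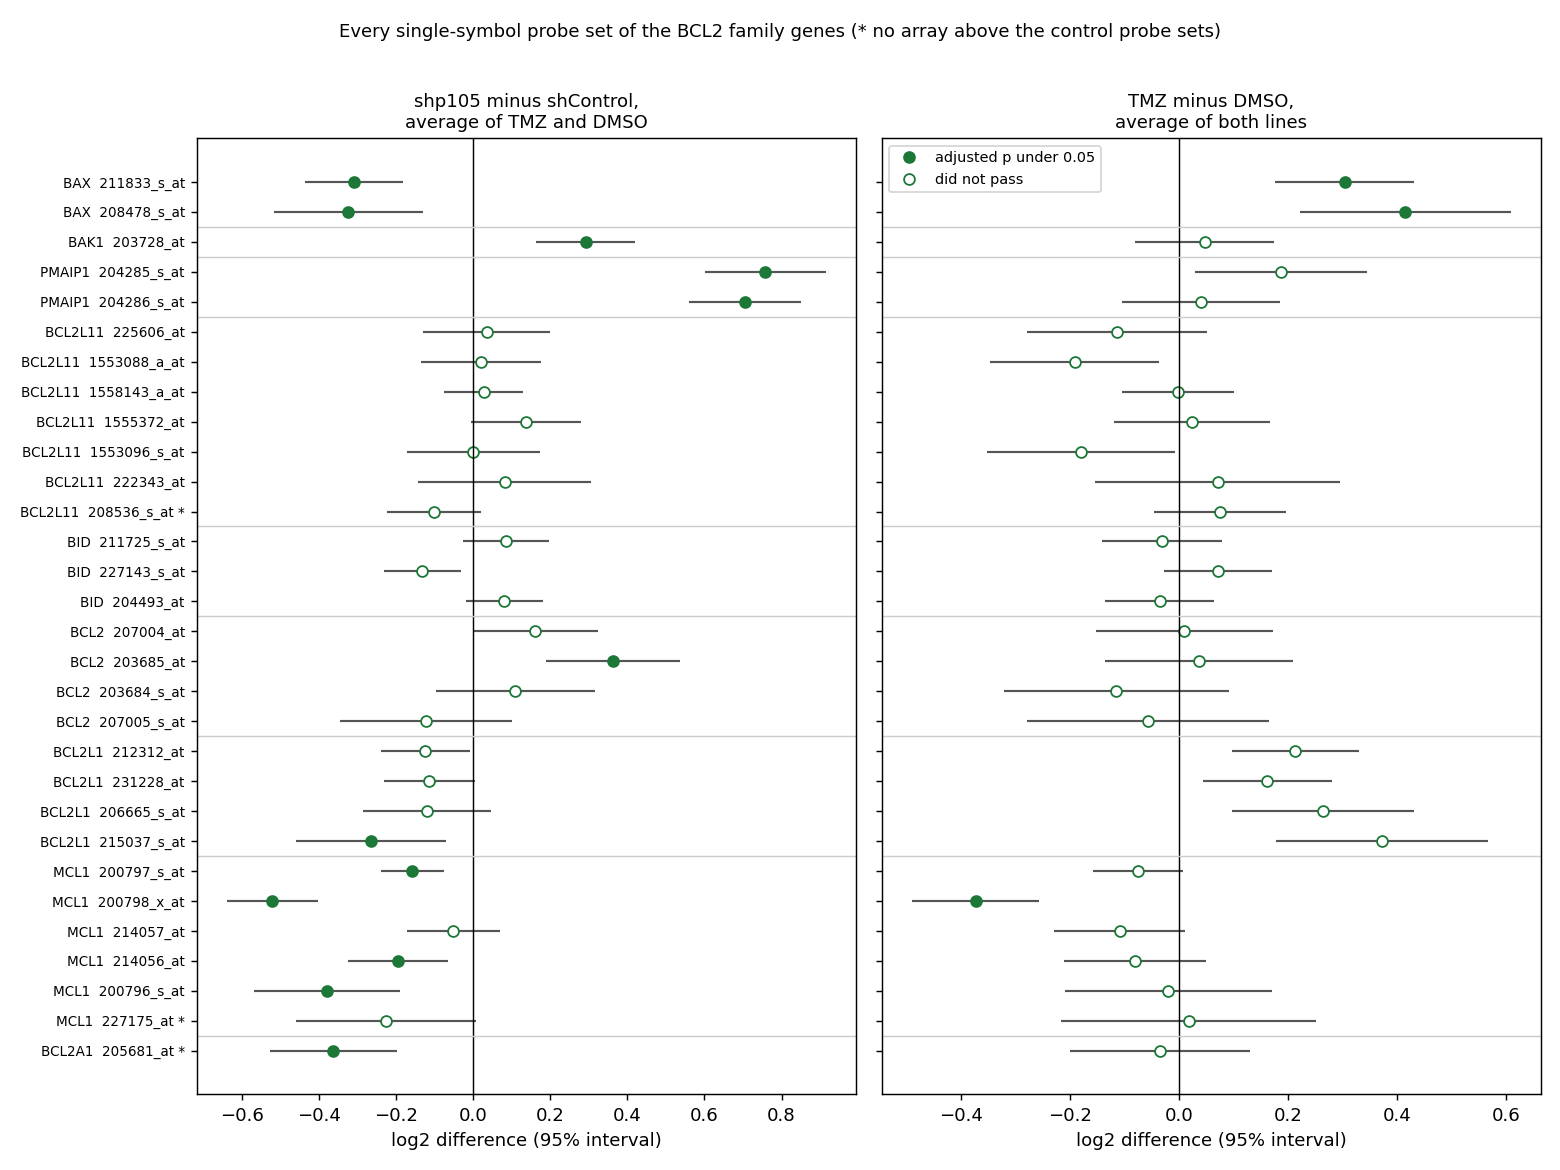
Log2 differences, with 95% intervals, of the 30 probe sets of 9 BCL2 family genes, each tested on its own, between the lines (left, averaged over both treatments) and between TMZ and DMSO (right, averaged over both lines). Filled points have an adjusted p under 0.05 over all 41097 probe sets, and asterisks mark probe sets with no array above the controls. One MCL1 probe set lies farthest to the left in both panels, at -0.52 and -0.37, and all 4 of BCL2L1 lie right of 0 for the drug.

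Genes around the family were read from lists chosen with earlier results of these data known. Of 13 further BCL2 family genes, 3 rose in shp105 cells with TMZ and 0 fell: HRK, a BH3-only gene (0.78, adjusted p = 0.00387), BCL2L2, a survival gene (0.23, adjusted p = 0.0245), and BNIP3, a mitophagy receptor (0.22, adjusted p = 0.00901). In DMSO HRK (0.57) and BNIP3 (0.25) were called. HRK was dim in shControl cells, at 4.49 ± 0.37 with TMZ and 4.61 ± 0.15 with DMSO (SD), near the highest control level of 4.30. The drug called 0 of the 13 in either line. Of all genes, 21.1% were called between the lines in TMZ and 19.9% in DMSO, so 3 and 2 of 13 are near the general rate. Their median line difference was -0.03 in TMZ and 0.03 in DMSO.

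Downstream of the mitochondrion, 4 of 19 measured genes were called in TMZ between the lines, close to the 21.1% of all genes. CASP9, the caspase of the apoptosome, was higher by 0.48 (adjusted p = 0.000557), ENDOG, a mitochondrial nuclease, by 0.41 and BIRC6, an inhibitor of apoptosis protein, by 0.17. DFFA, the inhibitor of the caspase-activated nuclease, fell by 0.30. In DMSO, where 19.9% of all genes were called, CASP9 was higher by 0.31 (adjusted p = 0.0106) and CASP2 lower (-0.17). Neither line had a call for the drug among these 19.

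Among the regulators, p53 genes rose with the drug in both lines: 9 of 18 in shp105 cells and 9 of 18 in shControl cells, with 0 lower. Of all genes, 0.647% were called higher in shp105 cells and 0.253% in shControl cells. The median response was 0.32 in shp105 cells and 0.31 in shControl cells, against 0.01 and -0.00 over all genes. GDF15, a stress cytokine, rose by 1.62 in shp105 cells and 1.14 in shControl cells, and CDKN1A, the inhibitor p21, by 0.92 and 0.88. BAX, at 0.17 in shp105 cells and 0.43 in shControl cells, and PMAIP1, at 0.03 and 0.34, were below GDF15 and CDKN1A. Against the list's median, both were lower in shp105 cells and higher in shControl cells. By their second probe sets, BAX was at 0.41 in shp105 cells and PMAIP1 at 0.13 in shControl cells. The shp105 count was 5 without shp105_DMSO replicate 1. With only the compared groups it was 2 in shp105 cells and 5 in shControl cells, against 2 and 19 of all genes called. With the spike-in covariate it was 4 in shp105 cells and 0 in shControl cells, against 13 and 0 of all genes.

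Of 8 stress regulators that act on BH3-only genes, 6 were higher and 1 lower in shp105 cells with TMZ, and 3 higher and 2 lower with DMSO. Of all genes, 10.1% were higher and 11% lower with TMZ, and 8.34% higher and 11.6% lower with DMSO. FOXO1, a transcription factor known to act on BCL2L11, was higher by 1.47 in TMZ and 1.70 in DMSO (adjusted p = 1.8e-05 and 5.11e-06), while BCL2L11 itself was not called. DDIT3, the gene of CHOP, was higher by 0.46 in TMZ and TRIB3, its partner, by 0.42, and JUN fell by 0.31. Of the 8, the drug called ATF3 in shp105 cells (0.37, adjusted p = 0.0247) and 0 in shControl cells.

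**Figure D5:**
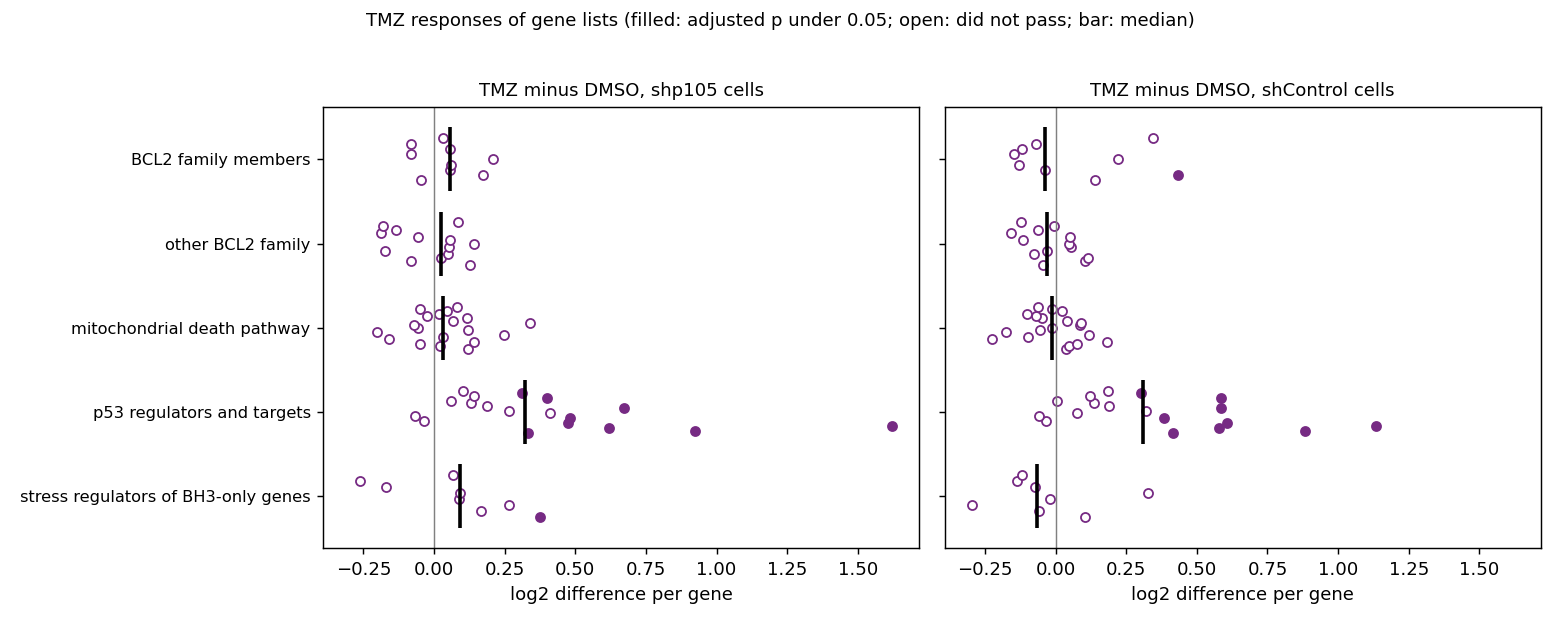
TMZ minus DMSO on the log2 scale for the BCL2 family members and 4 lists around them, in shp105 cells (left) and shControl cells (right). Each point is a gene, filled where its adjusted p was under 0.05, and the bar is the list's median. The p53 list has medians of 0.32 in shp105 cells and 0.31 in shControl cells, against 0.06 and -0.04 for the members.

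Of 8 NF-kB subunits and inhibitors, 3 were lower in shp105 cells with TMZ and 2 with DMSO, with 0 higher, against 11% of all genes lower with TMZ and 11.6% with DMSO. NFKBIA, the inhibitor IkB-alpha and itself an NF-kB target, was at -0.78 in TMZ and -0.69 in DMSO, and RELB, an NF-kB subunit, at -0.50 and -0.81. Of 5 genes that control the turnover of MCL1 protein, the ubiquitin ligase subunit BTRC (0.33) and the deubiquitinase USP9X (0.18) were higher in TMZ, and USP9X (0.17) in DMSO, against 10.1% and 8.34% of all genes. No list had a call for the difference of both drug responses.

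For the 3 members with the largest spread among the 4 groups by limma's moderated F, the genes with the most similar profile were sought among 9887 genes. Likeness was the root-mean-square difference of log2 levels over the 12 arrays, each profile centred on its mean. Nearest to PMAIP1 were TNFSF9 (0.101), NID2 (0.132) and NME3 (0.134), against a median of 0.430 over all genes searched. Nearest to BAX were LINC00294 (0.0841), ZNF252P (0.0966) and NEURL1B (0.0999), against a median of 0.253. Nearest to BAK1 were FOXP4 (0.0739), MCU (0.0750) and JAM3 (0.0754), against 0.208. The 12 arrays share the hairpin, the drug and the spike-in shift, so these values describe likeness over these arrays and nothing further.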

How the data were processed

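Total RNA of 12 samples was hybridized to Affymetrix expression arrays. The authors' deposited values are log2 levels per probe set, made with RMA and Affymetrix Power Tools, per the submitters' processing notes. Versions, the genome build and any filter by the authors: not given in the sources used here. Depth has no counterpart on arrays, and the number of arrays limits the precision.

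Probe sets took symbols from the platform's probe table, updated through the RefSeq gene table (GRCh38.p14). Of 54675 probe sets, 41097 had 1 symbol, 1801 several and 11777 none, and 54 kept the probe table's symbol. The single-symbol probe set with the highest mean over the 12 arrays stood for a gene, with no filter on dim genes. One limma fit of the 4 group means (lmFit and eBayes, 2-sided) served all comparisons, with Benjamini-Hochberg adjustment over 19775 genes. Fold values are 2 to the power of the size of the log2 difference. The fit was tested on simulated data.

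The members and the 10 lists beside them were chosen with earlier results of these data known. All members were named, NFKB1, and up to 3 called genes of a list per direction and comparison, those with the smallest p. Genes of the lists without a value are not analysed here. The averaged contrasts were added after the values had been seen.

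Alternatives tried were averaging the probe sets of a gene, p-values over all probe sets, leaving out genes below the median level, centring on array medians, quantile normalization, array weights, trend and robust variance, ordinary least squares, a fit of only the compared groups, the replicate block, the spike-in covariate, stricter thresholds (adjusted p under 0.01, or a log2 difference of at least 0.3) and each array left out. Software was R 4.3.3, limma 3.58.1, data.table (version 1.17.8), Python 3.11.15, numpy 2.4.6, pandas 2.3.3 and matplotlib 3.10.9.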

Additional observations from a re-analysis of the deposited data

How the results depend on the processing

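Over all alternatives, 1237 of 1318 member differences kept their side of the threshold, 68 lost a call and 13 gained one. The sign changed in 47 of the 1318, none of them a called value. In 1 of these the difference before any alternative was over 0.1 in size (BAX between the lines in DMSO, -0.18, and 0.15 with the spike-in covariate). Smaller differences turned as well, such as BCL2 for TMZ in shControl cells, from -0.04 to 0.22 with that covariate. Of 148 member counts, 112 stayed within 1.5 times. With spike-in levels as covariate, the count of called members was 0 in every comparison, against 3 between the lines in TMZ, 4 in DMSO, 1 for TMZ in shControl cells, 2 for the average TMZ response and 5 for the average line difference. As the spike-in levels nearly separate the groups, this fit can hardly tell spike-in level from group. Leaving out genes below the median level gave 5 between the lines in TMZ. That fit held neither BCL2 nor BCL2A1 and called 4332 of the genes kept, against 4166 of all 19775. The genes kept were those at or above the median level, 9887 besides the member sought in the likeness search. The called share among them was thus well above the 21.1% of all genes, and the higher count says little about the family. A log2 difference of at least 0.3 gave 3 for the average line difference, with 2554 of all genes called. Trend and robust variance gave 1 member for TMZ in shp105 cells and 2 in shControl cells, with 937 and 358 of all genes called. The shControl count was 0 with the mean of the probe sets, p-values over all probe sets, median centring, an ordinary linear model, the replicate block or a threshold of 0.01. These fits called 15 to 115 of all genes in shControl cells. The average TMZ count was 1 (BAX) with p-values over all probe sets, median centring, an ordinary linear model, the replicate block or a difference of at least 0.3, and 0 at a threshold of 0.01. Of all genes, 164 to 853 were called where the count was 1, and 125 at the threshold of 0.01.

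With 1 array left out, the counts were 2 to 3 (lines in TMZ), 3 to 4 (lines in DMSO), 0 to 0 (TMZ in shp105 cells), 0 to 0 (TMZ in shControl cells), 0 to 0 (difference of responses), 0 to 2 (average TMZ response) and 5 to 6 (average line difference). The share of all genes called in these fits is not given here, so the ranges are not set against it. Same-numbered arrays of 2 groups deviated together with correlations of only -0.11 to 0.12, so no shift shared by number was visible. The labels do not say whether the numbers pair the samples, and the replicate block is given as a check only. Of 1459 counts of list genes, 209 moved by over 1.5 times. BCL2A1, and single probe sets of BCL2L11 and MCL1, read within the control range, where the arrays cannot resolve a level.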
